A study of Bos taurus with 40 samples.

Results

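The 10 genes described here encode the precursors of neuropeptides: GRP and NMB (bombesin-like peptides), TAC1 (substance P and neurokinin A), PENK (the enkephalins), VIP, NPY, GAL (galanin), NTS (neurotensin), AVP (vasopressin) and OXT (oxytocin). They were taken by gene symbol, and all 10 were among the 13570 genes listed in the count tables, of which 13148 had at least 1 read in any library and were tested. The question was at what level each precursor was expressed in the pituitary gland of cattle, whether cows and bulls differed there, and how the pituitary compared with liver, fat and muscle. RNA-seq had been performed on Korean cattle slaughtered at an age over 22 months, with a carcass weight of 353 ± 36 kg. Liver, abdominal fat, longissimus muscle and the pituitary gland were taken from 5 cows and 5 bulls, which gave 40 libraries with 5 animals per sex and tissue. The sources used here name no treatment, the stage of the oestrous cycle is not stated in them, and the gland is named as a whole with no lobe specified.

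A neuropeptide precursor is cut by prohormone convertases inside secretory granules, and the released peptides act on G protein-coupled receptors of nearby or distant cells. In the pituitary gland, the anterior and intermediate lobes are endocrine epithelium, whereas the posterior lobe holds glia and the axon endings of hypothalamic neurons. AVP and OXT are made in the cell bodies of magnocellular neurons in the hypothalamus and are stored in those endings, while peptides such as galanin, VIP and substance P are also known from hormone-secreting cells of the anterior lobe.

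The pituitary libraries held 9196932 to 19165864 reads on genes, and all 40 libraries 5173092 to 19165864. Levels are given in CPM, the read count of a gene scaled to a common library total, with library totals adjusted by the trimmed mean of M-values (TMM) over the 40 libraries. On this scale a single read in a pituitary library was worth 0.0441 to 0.0808 CPM. The 3 most abundant hormone genes of the gland, PRL, GH1 and POMC, averaged 152018, 20043 and 17098 CPM there and at most 91.4, 12.5 and 20.2 CPM in another tissue. The 3 most abundant of 11 neuronal markers, SNAP25, NEFL and TUBB3, averaged 257, 89.7 and 38.4 CPM. Of the 11 markers, 5 averaged at least 10 CPM and 9 at least 1 CPM, while NEFM and GAD2 averaged 0.139 and 0.263 CPM. Summed over the 11 markers, the level was 396 to 486 CPM in cows and 371 to 486 CPM in bulls. This neuronal sum rests mainly on its most abundant genes, and the part of neurons or axons in it was not tested. The sum over 8 markers of posterior-lobe glia was 118 to 290 CPM in cows and 147 to 265 CPM in bulls, so neither list separated the sexes. The glial sum was 398 to 1223 CPM in the fat of cows and 472 to 939 CPM in that of bulls. In muscle it was 94.4 to 202 CPM in cows and 169 to 320 CPM in bulls. It is therefore not particular to posterior-lobe glia. The liver library of bull 3 had 0 reads on the Y-linked genes DDX3Y, USP9Y and ZFY and an XIST level of 1401 CPM, within the cow range, which goes against its label. The fat library of bull 5 had 28 reads on those 3 genes against 454 to 722 in the other bulls. Both libraries lie outside the pituitary, and results that use them were also computed without them.

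GRP was the precursor with the largest sex difference in the pituitary gland and was higher in cows. The cows had 7.32, 0.883, 5.94, 12.7 and 4.58 CPM and the bulls 0, 0.151, 0.0764, 0.0881 and 0.0652 CPM. Each cow lay above each bull, and the bulls together had 7 GRP reads against 443 in the cows. The means were 6.29 ± 4.32 CPM in cows and 0.0762 ± 0.0541 CPM in bulls (SD, n = 5 each). In model M1, which compared the sexes within a tissue, the log2 fold change of bulls over cows was -6.15 ± 0.78 (SE), with an FDR adjusted P-value of 7.64e-13 in the edgeR likelihood ratio test. By P-value GRP ranked 5 among the 13148 genes, behind XIST and the Y-linked genes DDX3Y, USP9Y and ZFY. In the quasi-likelihood test of edgeR the adjusted P-value was 0.00139. In the 10 fits that left out 1 animal each, the adjusted P-value of the likelihood ratio test ran from 1.48e-25 to 5.97e-10. GRP is the peptide that releases gastrin in the stomach, and its receptor GRPR (1.59 ± 2.72 CPM, SD, n = 10 pituitaries) had an adjusted P-value of 0.663 for sex in edgeR. Since GRP was at its highest in fat, the summed level of 3 adipocyte markers is given beside it. It was 7.01 to 11.7 CPM in cow pituitaries and 9.08 to 11.2 CPM in bull pituitaries, against at least 4024 CPM in every fat library. The part of fat tissue in the GRP result was not tested.

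AVP, the antidiuretic hormone precursor, differed in the opposite direction. The cows had 0.0631, 0.236, 0.0725, 0.156 and 0.273 CPM (1 to 4 reads each), and the bulls had 1.13, 0.403, 0.840, 1.23 and 1.11 CPM (8 to 28 reads each). The groups did not overlap, and the means were 0.160 ± 0.094 CPM in cows and 0.944 ± 0.335 CPM in bulls (SD, n = 5 each). The log2 fold change was 2.49 ± 0.59 (SE), with an adjusted P-value of 0.00320 by edgeR, and AVP ranked 24 of 13148 genes. The adjusted P-value was 0.0168 in DESeq2 and 0.138 in the quasi-likelihood test of edgeR, and the filter filterByExpr, which removes genes with low counts, left AVP out. In the fits that left out 1 animal each, the adjusted P-value of the likelihood ratio test stayed between 0.000132 and 0.0328. In this RNA of the gland, the share of each lobe, the number of cells and the RNA per cell cannot be told apart.

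All 4 muscle markers had log2 fold changes in the direction of AVP in the pituitary. Of them 1 was called, where 0.555% of all genes were called higher in bulls. The sum over ACTA1, CKM, MYH7 and TNNT3 was 8.91 to 25.0 CPM in cow pituitaries and 17.8 to 54.6 CPM in bull pituitaries, so that the ranges overlapped. MYH7 passed the test with a log2 fold change of 1.18 ± 0.28 (SE) and an adjusted P-value of 0.00837 in edgeR, and ACTA1 (0.0628), CKM (0.191) and TNNT3 (0.130) did not. The log2 fold changes of ACTA1, CKM and TNNT3 were larger than that of MYH7, at 1.91 ± 0.54, 1.88 ± 0.65 and 1.80 ± 0.57 (SE). The part of these markers in the AVP result was not tested. AVP itself averaged 0.175 ± 0.210 CPM in muscle (SD, n = 10), against 0.160 CPM in the cow pituitaries and 0.944 CPM in the bull pituitaries. Of the other marker lists, CGA, the common subunit of the glycoprotein hormones, was higher in bulls by 1.84 ± 0.44 (log2, SE) with an adjusted P-value of 0.0125 in edgeR, and NR5A1, a factor of gonadotrophs, by 0.77 ± 0.21 with 0.0441. None of the tested markers of neurons (0 of 11), posterior-lobe glia (0 of 8) or hypothalamic factors (0 of 8) was called, against 0.745% of all genes.

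OXT, the oxytocin precursor, lies next to AVP in the genome and acts in milk ejection and labour. The cows had 0.252, 0.118, 0, 0.468 and 0.273 CPM and the bulls 0.566, 0.958, 0.305, 0.573 and 0.717 CPM. The bulls were higher on average but the ranges overlapped, with means of 0.222 ± 0.176 and 0.624 ± 0.239 CPM (SD, n = 5 each). The log2 fold change was 1.49 (95% interval 0.36 to 2.62), and the adjusted P-value was 0.249 by edgeR. The AVP and OXT genes share a closely similar stretch that encodes neurophysin, and only uniquely aligned reads were counted, so reads from that stretch may be missing from both.

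NTS encodes neurotensin, a peptide of gut and brain. The cow pituitaries had 0.568, 7.42, 0.0725, 0.546 and 0.547 CPM and the bull pituitaries 0.323, 0.101, 0.153, 0.0881 and 0.326 CPM. Cow 2 alone held 126 of the 151 NTS reads of the cows, and the other 4 cows had 1 to 9 reads. The log2 fold change was -3.18 (95% interval -5.01 to -1.35), with an adjusted P-value of 0.0891 in edgeR. The adjusted P-value rose to 0.806 without cow 2, at a log2 fold change of -1.18, and it was 0.0252 without cow 3 and 0.0386 without cow 5.

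VIP encodes vasoactive intestinal peptide, which stimulates prolactin release. Its levels were 0.189, 0.589, 0.145, 2.73 and 0.342 CPM in the cows and 1.13, 2.57, 3.97, 4.19 and 0.652 CPM in the bulls. Of the cows, 4 lay below all bulls, and cow 4 lay among them. The log2 fold change was 1.64 (95% interval 0.21 to 3.07) with an adjusted P-value of 0.448 by edgeR, and without cow 4 it was 2.96 with an adjusted P-value of 0.00319.

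**Figure D1:**
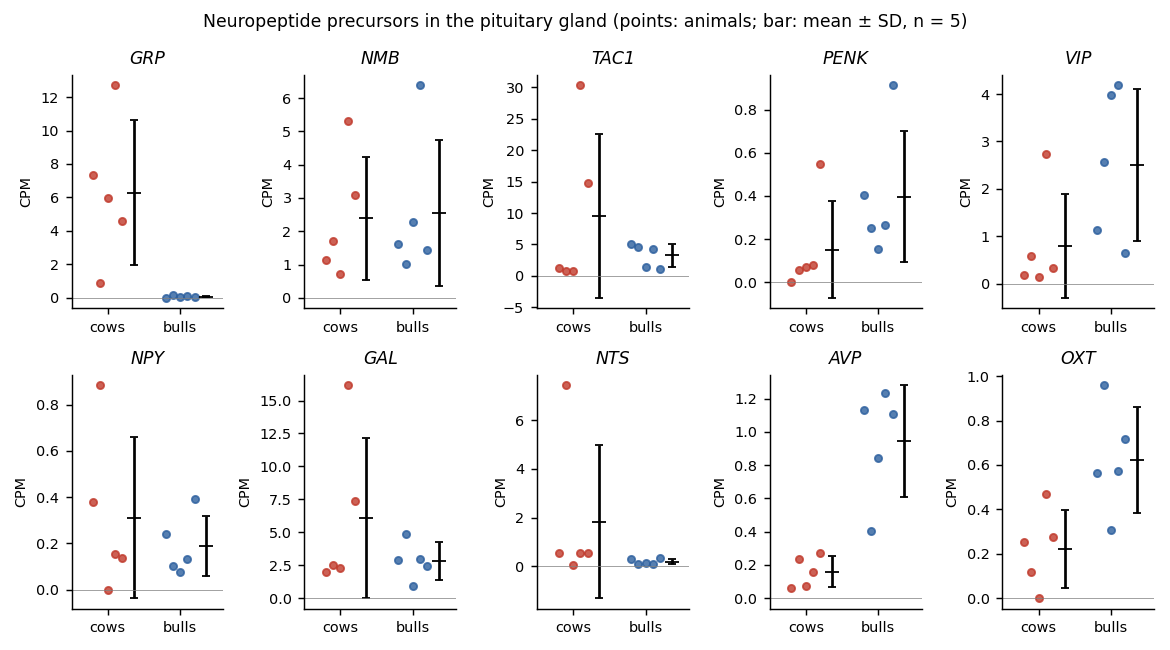
CPM of each precursor in the pituitary gland of the 5 cows and 5 bulls, on a separate linear axis per gene. Points are animals and the bar is the mean ± SD (n = 5). In GRP (cows higher) and AVP (bulls higher) the sexes do not overlap, and in NTS, TAC1 and GAL 1 or 2 cows stand far above the rest.

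GAL and TAC1 were highest in the same cows. GAL was 1.956, 2.53, 2.32, 16.1 and 7.38 CPM in cows and 2.91, 4.89, 0.916, 2.95 and 2.41 CPM in bulls. TAC1 was 1.26, 0.825, 0.725, 30.3 and 14.7 CPM in cows and 5.09, 4.54, 1.37, 4.23 and 1.11 CPM in bulls. Cows 4 and 5 stood above all other animals for both genes, and the remaining cows lay within or below the bull range. The log2 fold changes were -1.13 (95% interval -2.25 to 0.00) for GAL and -1.58 (95% interval -3.22 to 0.07) for TAC1, with adjusted P-values of 0.540 and 0.574 in edgeR.

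The other 3 precursors gave no call either, and their intervals leave room for sizeable differences. NMB, which inhibits thyrotropin release in rodents, averaged 2.39 ± 1.85 CPM in cows and 2.55 ± 2.20 CPM in bulls (SD, n = 5 each), with a log2 fold change of 0.09 (95% interval -1.06 to 1.25). PENK averaged 0.151 ± 0.223 and 0.397 ± 0.302 CPM, with 1.34 (95% interval -0.24 to 2.93). NPY, best known for stimulating appetite, averaged 0.311 ± 0.348 and 0.189 ± 0.130 CPM, with -0.75 (95% interval -2.30 to 0.80). The adjusted P-values in edgeR were 0.997, 0.603 and 0.758. PENK and NPY had 0 to 14 and 0 to 15 reads per pituitary, so only large differences could have been detected in them.

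Of the 10 members, 2 passed the M1 test in the pituitary, 1 in each direction, where 0.745% of all genes passed (0.555% higher in bulls and 0.19% higher in cows). The sexes did not overlap in the same 2 members, against 1.34% of all genes (0.852% higher in bulls and 0.487% higher in cows). The study had already reported GRP as a sex-related gene of the pituitary from these libraries. The members were chosen with earlier results known, so their counts are a description and no test against the shares of all genes. The quasi-likelihood test called 1 member, GRP, and 0.0913% of all genes. An unadjusted P-value under 0.05 was reached by GRP, AVP, OXT, NTS and VIP in both edgeR tests, and by 9.27% (likelihood ratio) and 8.62% (quasi-likelihood) of all genes. All 10 members passed the filter of 1 read in any library, and filterByExpr kept 5 of them in the pituitary (GRP, NMB, VIP, GAL and TAC1).

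In liver, fat and muscle none of the 30 member tests was called by edgeR's likelihood ratio test, where 0.175%, 0.114% and 0.517% of all genes were. An unadjusted P-value under 0.05 occurred in 3 of them, in 2 with the quasi-likelihood test and in 1 of 24 with DESeq2, which also called 0. Of all genes, 7.45% in liver, 6.88% in fat and 11% in muscle had such a P-value in the likelihood ratio test, so the members' share was near that of all genes. The 3 were NTS in fat, OXT in muscle and GAL in muscle. NTS in fat was 0.360, 2.08, 1.56, 0.928 and 2.83 CPM in cows and 11.9, 1.55, 3.48, 6.56 and 4.95 CPM in bulls. Bulls were higher on average and bull 2 lay within the cow range, with a log2 fold change of 1.86 ± 0.62 (SE) and an adjusted P-value of 0.401 in edgeR. GRP did not separate the sexes in fat, where it averaged 54.5 ± 68.8 CPM in cows and 52.0 ± 70.4 CPM in bulls (SD, n = 5 each), with a log2 fold change of -0.09 (95% interval -1.99 to 1.81). Without the fat library of bull 5 the log2 fold change of GRP was -1.41, with an adjusted P-value of 0.745 in edgeR, and without cow 2 it was 0.99, with 0.778. Without bull 5, 0 of the 10 members were called in fat.

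**Figure D2:**
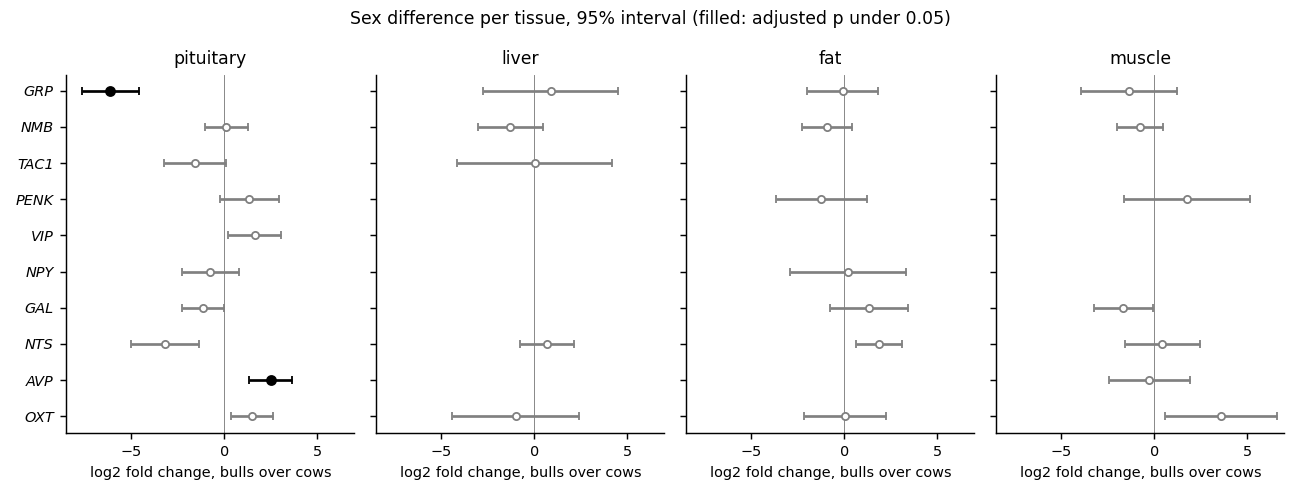
Log2 fold change of bulls over cows per tissue from M1, with its 95% interval. Filled points have an adjusted p under 0.05, and genes whose error could not be estimated because 1 sex or both had no reads are left out. The filled points are GRP at -6.15 and AVP at 2.49, both in the pituitary.

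The sex-by-tissue interaction tested whether the effect of sex differed between tissues. It called GRP with an adjusted P-value of 0.0175 in edgeR, and 0.335% of all genes. Relative to the pituitary, the log2 fold change of GRP was 7.16 higher in liver, 6.05 higher in fat and 4.68 higher in muscle, although liver and muscle held 3 and 10 GRP reads in all. The call was lost in the quasi-likelihood test (0.189), which called 0.0% of all genes, and in DESeq2 (0.0726). It was also lost without cow 1 (0.0611), cow 3 (0.0664), bull 1 (0.0567), bull 2 (0.0561), bull 4 (0.05003) or bull 5 (0.0871), and it held without the liver library of bull 3 and the fat library of bull 5 (0.0280). NTS had an interaction P-value of 0.0634 after adjustment, and 0.0459, 0.0349 and 0.0258 without cow 3, cow 4 and cow 5. In model M2, with sex and tissue as terms, edgeR called 0 of the 10 members and 1.69% of all genes. The unadjusted P-value was under 0.05 for GRP, VIP and AVP, and for 5 members in the quasi-likelihood test and 1 in DESeq2, which called 0 as well, against 16.7%, 15.8% and 16.2% of all genes. AVP was called in M2 without cow 3 (0.0399) or bull 2 (0.0411), VIP without cow 4 (0.00369) and GRP without bull 5 (0.0490), against 0.107, 0.229 and 0.244 with all animals.

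Across tissues, most reads of VIP, TAC1, AVP, NPY and GAL lay in the pituitary. The pituitary libraries held 99.6% of the VIP reads, 99.6% of the TAC1 reads, 89.1% of the AVP reads, 88.9% of the NPY reads and 87.2% of the GAL reads of all 40 libraries. VIP had 277 reads in the pituitaries, 1 read in liver and 0 in fat and muscle, so it was at least 7.497-fold higher than in fat and at least 3.72-fold higher than in muscle, taking 3 reads per library as the floor. TAC1 averaged 6.42 ± 9.40 CPM in the pituitary (SD, n = 10), with 2 reads in liver, 2 in fat and 0 in muscle. It was at least 14.5-fold higher than in muscle by the same floor, and at least 8.49-fold higher without cow 4. The lowest TAC1 value in a pituitary exceeded the highest in any other tissue, and TAC1 was the only member whose tissues separated in this way. AVP had 90 reads in the pituitaries, 0 in liver and fat and 11 in muscle. Over both sexes it was at least 1.48-fold higher than in liver and at least 2.51-fold higher than in fat. The mean of the cow pituitaries (0.160 CPM) was below the floors of liver (0.373 CPM) and fat (0.220 CPM), so no bound can be given for cows alone. NPY had 40 reads in the pituitaries, 0 in liver, 4 in fat and 1 in muscle, too few for a bound against liver. GAL averaged 4.44 ± 4.49 CPM in the pituitary, 0.716 ± 0.732 in muscle, 0.284 ± 0.336 in fat and 0.0183 ± 0.0389 in liver (SD, n = 10 each), with overlap between neighbours in this order.

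GRP, NMB and NTS were highest in fat. GRP in fat was 40.7, 170, 57.8, 2.84 and 1.495 CPM in cows and 30.4, 16.9, 21.4, 13.9 and 178 CPM in bulls. Cow 2 and bull 5 stood far above the rest, and cows 4 and 5, with 2.84 and 1.495 CPM, were the 2 animals whose pituitary level was the higher one. The mean in fat was 8.66 times that in the pituitary in cows (54.5 against 6.29 CPM), while in bulls it was 52.0 CPM against 0.0762 CPM, the latter from 7 reads. The log2 fold change of pituitary over fat was -5.05 ± 0.78 (SE), with an adjusted P-value of 1.06e-06 in edgeR, and -4.54 without the liver library of bull 3 and the fat library of bull 5. NMB was 3.95 ± 3.19 CPM in fat, 2.47 ± 1.92 in pituitary, 0.967 ± 0.699 in muscle and 0.294 ± 0.375 in liver. The contrast of pituitary and fat was not called for NMB (adjusted P-value 0.280 in edgeR), and fat was the higher one in 7 of 10 animals. The pituitary was higher than liver and muscle in 10 of 10 animals each. Without bull 4, the NMB contrasts changed sides of the threshold, to 0.0342 against fat and 0.0614 against muscle.

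**Figure D3:**
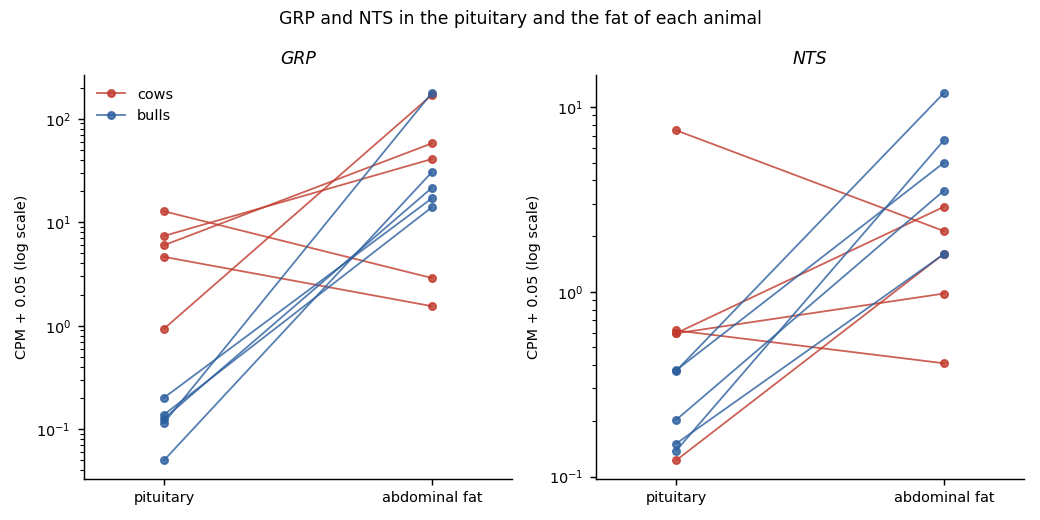
GRP and NTS in the pituitary gland and abdominal fat of each animal, as CPM + 0.05 on a log axis, with lines joining the 2 tissues of 1 animal. GRP rises from pituitary to fat in 8 of 10 animals and falls in cows 4 and 5, and NTS rises in 8 of 10.

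NTS was 3.61 ± 3.46 CPM in fat, 1.01 ± 2.26 in the pituitary, 0.925 ± 0.743 in liver and 0.149 ± 0.143 in muscle (SD, n = 10 each). The pituitary was lower than fat in 8 of 10 animals, with a log2 fold change of -1.76 ± 0.68 (SE) and an adjusted P-value of 0.0376 in edgeR. Leaving out cow 5 or any 1 of the bulls raised that adjusted P-value to between 0.0719 and 0.147. The NTS contrasts also moved with cow 2. Without it the difference from fat was larger (a log2 fold change of -3.44, adjusted P-value 1.24e-08). The pituitary was then 1.68 lower than liver on the log2 scale (a log2 fold change of -1.68, adjusted P-value 0.00471, against 0.17 and 0.861 with all animals), and the difference from muscle was no longer called (0.281 against 0.00186).

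OXT was highest on average in muscle, through 3 animals. It was 0, 1.73, 0, 0.296 and 0 CPM in the muscle of cows and 0.174, 12.5, 13.2, 0 and 0 CPM in that of bulls. Bull 2, bull 3 and cow 2 held 119, 50 and 20 of the 192 OXT reads in muscle, while AVP had 0 to 4 reads in each muscle library. In 6 of 10 animals OXT was higher in the pituitary (0.423 ± 0.290 CPM) than in muscle (2.79 ± 5.33 CPM, SD, n = 10 each). The log2 fold change of pituitary over muscle was -2.36 ± 0.93 (SE), with an adjusted P-value of 0.0271 in edgeR, and the call was lost without cow 2 (0.106), bull 2 (0.0923) or bull 3 (0.131). PENK was 0.274 ± 0.282 CPM in the pituitary, 0.111 ± 0.178 in fat, 0.0772 ± 0.133 in muscle and 0.00780 ± 0.0247 in liver, where 1 PENK read was found in all.

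Counted together, the pituitary exceeded liver in 9 of 10 members (35.6% of all genes), fat in 5 (33.3%) and muscle in 8 (33.0%). It was lower than liver in none (29.7% of all genes), lower than fat in 2, GRP and NTS (32.3%), and lower than muscle in 1, OXT (32.0%). AVP over muscle was among the calls with an adjusted P-value of 0.0280, which was lost without cow 2 (0.0573), bull 1 (0.0739), bull 4 (0.121) or bull 5 (0.0732), and OXT over liver was lost without cow 4 (0.0669). The tissues came from the same animals. With the animal as a block, the call of OXT against muscle was lost (adjusted P-value 0.670) and so was that of NTS against muscle (0.0667), while OXT against fat (0.0435, 0.0559 without the block) and PENK against muscle (0.0447, 0.0579 without the block) were called. PENK was also called against fat without cow 2 (0.00397, 0.238 with all animals) and against muscle without cow 2 (0.0378), cow 4 (0.0372), bull 1 (0.0385) or bull 5 (0.0446), and OXT against fat without cow 3 (0.0426).

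**Figure D4:**
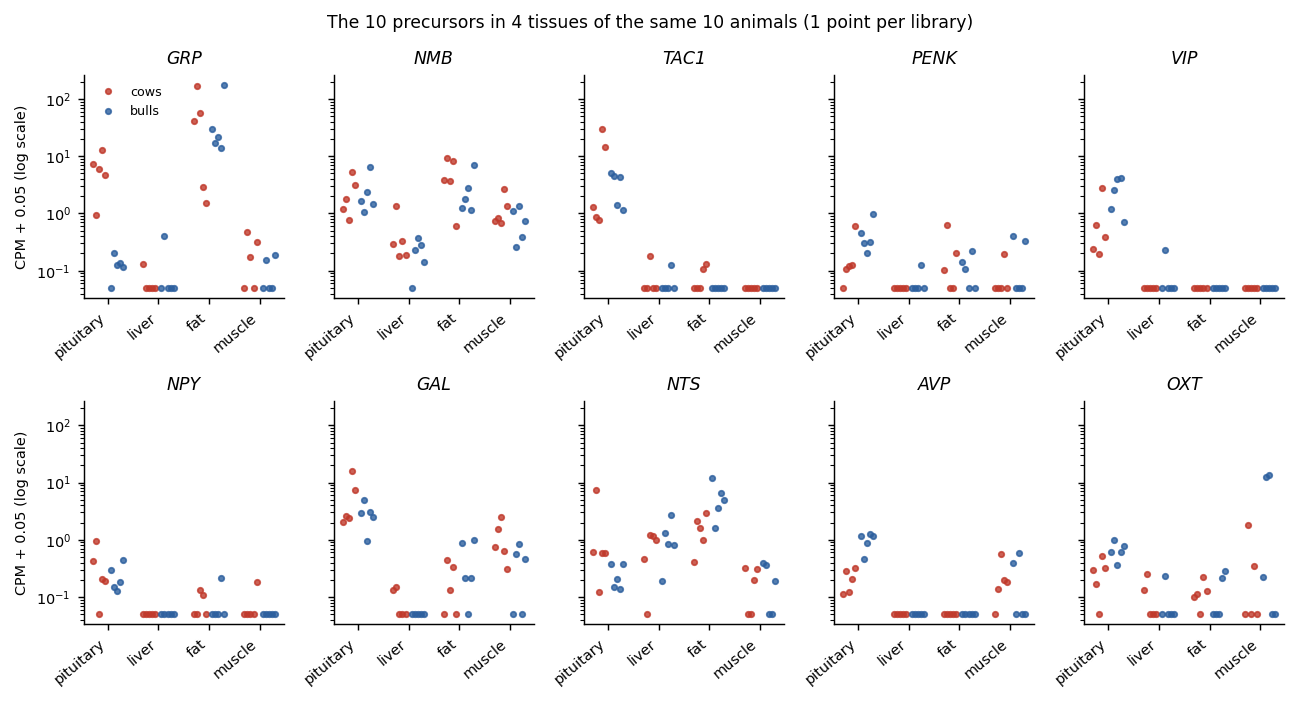
CPM + 0.05, on a log axis, of each precursor in the pituitary gland, liver, abdominal fat and muscle of the same 10 animals, with 1 point per library and cows and bulls side by side. Points at 0.05 are libraries with 0 reads. TAC1 and VIP are near 0 outside the pituitary, GRP and NTS peak in fat, and OXT is high in the muscle of bulls 2 and 3.

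Over the 10 pituitaries, correlations of log2(CPM + 1) were computed for the 10 pairs among NMB, VIP, GAL, TAC1 and NTS, the members with a mean of at least 1 CPM whose sexes overlapped. GAL and TAC1 had a Pearson's r of 0.904 (permutation p = 0.00071, adjusted 0.0071) and a Spearman's rho of 0.758 (permutation p = 0.0152, adjusted 0.152). Without cows 4 and 5, the 2 animals farthest from the median, r was 0.584 in the other 8 (exact permutation p = 0.115, two-sided), so the relation was weaker there and passed 0.05 only with those 2 animals. After subtracting the mean of each sex r was 0.923. The other 9 pairs had adjusted permutation p-values of at least 0.205 for r, and r between -0.300 and 0.652. AVP and OXT were below 1 CPM on average, and the sexes did not overlap in AVP, so their correlation was not given.

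**Figure D5:**
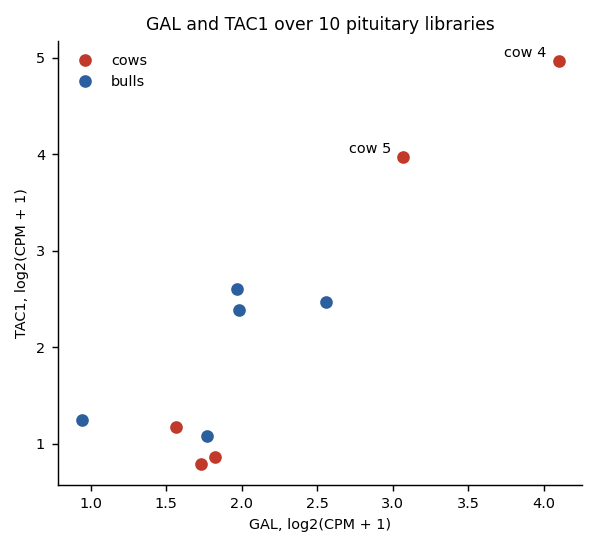
TAC1 against GAL in the 10 pituitary libraries, each as log2(CPM + 1). Cows 4 and 5 lie at the upper right, and the other 8 animals form a looser cloud in which r is 0.584.

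Among the 10434 genes with a mean of at least 1 CPM in the pituitary, those most like each member over the 10 libraries were found by Pearson's r of log2(CPM + 1), as a description. For GRP they were SPN (0.902), SPP1 (0.885) and SOAT1 (0.882), and for NMB they were EIF4A1 (0.963), GOT2 (0.953) and CMTM8 (0.946). VIP was most like MSMO1 (0.931), DNAJC12 (0.928) and MRPS6 (0.909). The nearest gene to GAL was TAC1 itself (0.904), followed by CRYBA2 (0.888) and DCLK1 (0.878). TAC1 was nearest to DHODH (0.949), SLC17A9 (0.924) and TNFRSF6B (0.912), with GAL at rank 5. For NTS, whose values are dominated by cow 2, they were FBXO33 (0.971), GRM3 (0.908) and YWHAZ (0.874). These values share libraries and depth, and the highest of many correlations over 10 points are large by selection.

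The genes that act with the precursors were read from lists. Of 25 receptors of the members, 20 were listed in the files and 18 tested, and 0 were called for sex in the pituitary (0.745% of all genes). None averaged 10 CPM there. AVPR1B, the vasopressin receptor of corticotrophs, named here after its values were seen, averaged 2.82 ± 1.75 CPM in the pituitary (SD, n = 10) and had 0 reads in liver and fat. Of 10 processing genes tested, 0 were called for sex. In the pituitary 8 were higher and 1 lower than in liver (35.6% and 29.7% of all genes), 6 higher and 3 lower than in fat (33.3% and 32.3%), and 8 higher and 1 lower than in muscle (33.0% and 32.0%). The chaperone SCG5 of convertase 2 averaged 1457 ± 295 CPM, carboxypeptidase E (CPE) 703 ± 121, the amidating enzyme PAM 346 ± 50.7, and the convertase inhibitor PCSK1N 195 ± 85.7. The convertases PCSK2 and PCSK1 averaged 102 ± 115 and 101 ± 35.5 CPM, and FURIN, QPCT and PCSK7 42.4 ± 9.39, 41.8 ± 13.4 and 32.5 ± 7.02 CPM.

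Of 32 other neuropeptide precursors tested, 1 was called for sex in the pituitary, against 0.745% of all genes. CALCA, which encodes calcitonin and its gene-related peptide, was 0.378 ± 0.1245 CPM in cows and 0.0516 ± 0.0480 CPM in bulls (SD, n = 5 each), with a log2 fold change of -2.77 ± 0.85 (SE) and an adjusted P-value of 0.0167 in edgeR. The 2 precursors of at least 10 CPM were POMC and NPPC, the C-type natriuretic peptide gene, at 58.3 ± 40.2 CPM, and neither was called for sex (0.280 and 1). The median log2 fold change of bulls over cows in the pituitary was -0.33 over the 10 members, 0.34 over the receptors, 0.16 over the processing genes and 0.03 over the other precursors.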

How the data were processed

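RNA-seq reads had been aligned and counted per gene by the authors. Per the labels and the study's methods, Trimmomatic, Bowtie2, TopHat2, SAMtools and HTSeq were used on the bosTau7 build, with uniquely aligned reads only. The deposited values are raw counts per gene. Strandedness and the counting mode are not given in the sources used here, so reads of overlapping or antisense genes cannot be told apart. A line that names no gene (0.114 to 2.69% of counted reads) was left out.

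The members and lists were chosen with earlier results of these data known. Genes with at least 1 read in any library were tested with the edgeR 4.0.16 likelihood ratio test (R 4.3.3), with Benjamini-Hochberg adjustment over 13148 genes and a threshold of 0.05. M1 compared the sexes within a tissue, M2 held sex and tissue, and an interaction and tissue contrasts were fitted over all 40 libraries. Log2 fold changes are bulls over cows or pituitary over another tissue, with a prior count of 0.125. Alternatives were the quasi-likelihood test, DESeq2 1.42.0, other scaling, filterByExpr, an animal block (limma 3.58.1 for M2) and leaving out each animal. Fits that left out an animal used the likelihood ratio test. Scripts were tested on simulated data. Correlations used scipy 1.17.1 with 100000 permutations. Intervals and floors of 3 reads cover counting error only, apart from those of log2 fold changes.

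Cows 1 to 5 and bulls 1 to 5 were numbered by group, and these numbers do not pair cows with bulls. The tissues of an animal share an ear tag in the labels. Their deviations from group means correlated at 0.0102 to 0.315 within animals and at -0.0768 to -0.00818 between animals. Centring within groups of 5 animals makes the values between animals negative where those within animals are positive, so they add nothing on the pairing. No other batch is given. Named besides the members were the 3 genes most like each member with a mean of at least 1 CPM, the 3 most abundant of a marker list, and the list genes that were called or, outside the marker lists, averaged at least 10 CPM.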

Additional observations from a re-analysis of the deposited data

Results flagged for a closer look

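In 9 of the 44 groups of 5 libraries that were examined, 1 animal stood apart from the other 4 by more than Dixon's 95% limit of 0.71 of the range. For normally distributed values chance gives about 1 in 20 groups. Here the limit was applied to CPM without a log transformation, and all 9 were the highest value of their group. The count is therefore a description and cannot be set against that rate. In the pituitary the values that stood apart were NTS in cow 2 (7.42 CPM, 126 reads, with 0.568 CPM in the next cow), VIP in cow 4 (2.73 CPM, 35 reads), PENK in cow 5 (0.547 CPM, 8 reads) and NMB in bull 4 (6.39 CPM, 145 reads).

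In fat they were GRP in bull 5 (178 CPM, 2297 reads, with 30.4 CPM in the next bull), NMB in the same library (6.96 CPM, 90 reads) and PENK in cow 2 (0.585 CPM, 9 reads). The fat library of bull 5 is the one with few reads on Y-linked genes, and the part of that library's origin in its GRP and NMB levels was not tested. In liver, NMB stood apart in cow 2 (1.33 CPM, 13 reads), and in muscle OXT stood apart in cow 2 (1.73 CPM, 20 reads).

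The sex difference of GRP differed between tissues by the interaction test of edgeR, with an adjusted P-value of 0.0175 that did not hold in the quasi-likelihood test (0.189) or in DESeq2 (0.0726).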

How the results depend on the processing

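In the pituitary, 2 members were called for sex, and 1 with the quasi-likelihood test and 1 with filterByExpr, which gave no value for the members it removed. Leaving out 1 animal gave 2 to 3. Over all genes the calls went from 98 to 12 with the quasi-likelihood test and to 56 with library sizes alone, and leaving out 1 animal gave 54 (without cow 2) to 231 (without cow 5). In M2, 0 members were called with all libraries, 1 (GRP, 0.0483) without the liver library of bull 3 and the fat library of bull 5, an alternative chosen after seeing the data, and 0 to 1 when 1 animal was left out. For the interaction, 1 member was called, 0 with the quasi-likelihood test, 0 with DESeq2 and 0 to 2 when 1 animal was left out. Of the contrasts in which a member was lower in the pituitary, 3 were called, 1 with library sizes alone and 1 to 3 when 1 animal was left out. With library sizes alone the members' median log2 fold change for sex in the pituitary went from -0.33 to -0.48, and the log2 fold changes of pituitary over liver, fat and muscle shifted by a median of 0.60, 0.20 and 0.84 per member.

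Direction changed for the following members. The sex difference of NMB in the pituitary was -0.043 with library sizes alone and -0.60 to 0.64 when 1 animal was left out, and that of NPY was -1.19 to 0.094. NTS over liver was -0.97 with the animal as a replicate block and -1.68 to 0.64 when 1 animal was left out. The sex difference of GRP in fat was -1.41 to 0.99 when 1 animal was left out. Leaving out 1 animal also turned the direction of sex differences that were not called in any such fit, namely GRP and TAC1 in liver, PENK, NPY and OXT in fat, AVP in muscle and NTS in M2. Counts of calls were also summed over the 3 tissue contrasts, so that a member can count more than once. With the replicate block, on the tissues of an animal, 23 such calls were higher in the pituitary (22 without it) and 2 lower (3 without it). The block kept the interaction call of GRP (0.0158), while M2 with the block called 0 members. Besides the calls named with the tissue contrasts the block changed no other call. AVP over muscle was not called by the quasi-likelihood test (0.0628) or DESeq2 (0.112). Of 393 values for single members in the pituitary test, the tissue contrasts, the interaction, the GAL and TAC1 correlation, and GRP and NTS in fat, 355 kept direction and side of the threshold, 16 lost the call, 16 gained it and 6 changed direction; the causes were not tested. Correlations of AVP and OXT were not computed, because the sexes did not overlap in AVP and each sex has 5 animals. Members with few reads per library allow only large differences to be detected.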
